A study of Mus musculus with 2 samples.

Results

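The genes of messenger RNA decay were compared in whole uterus on gestational day 4 between a library of genotype Mettl14 f/f and one of genotype Mettl14 d/d. Members were taken by gene symbol, namely every symbol of the CCR4-NOT, PAN2-PAN3, PARN, decapping, LSM, XRN, exosome, SKI, nonsense-mediated decay, no-go decay, Pumilio, ZFP36, BTG/TOB, Argonaute and TNRC6 families. This gave 92 of the 55363 genes in the files. Of these, 83 were decay factors or their close relatives, 5 were zinc finger genes that share only the prefix Zfp36, and 4 were pseudogenes or gene copies.

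The data hold 1 library per genotype. Females aged 6 to 8 weeks were mated with fertile males, and the day of the plug was counted as day 1. Mettl14 encodes METTL14, which holds the RNA substrate for METTL3, and together they place N6-methyladenosine (m6A). In the usual notation f/f means floxed and d/d deleted alleles. The f/f library is taken here as the reference. The sources used here do not give the strain, the Cre driver and its cell type, or whether a library came from 1 animal or a pool. Mettl14 itself was 13.6 FPKM in f/f against 3.21 in d/d. FPKM is the number of fragments scaled to the length of the gene model and to the mapped fragments of the library, so levels of different genes can be set side by side.

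Most messenger RNAs are degraded from their ends. PAN2-PAN3 and CCR4-NOT shorten the poly(A) tail, after which the cap is removed by DCP2 and the body is digested from the 5′ end by XRN1 or from the 3′ end by the exosome. Specific transcripts are marked for this by microRNAs bound to Argonaute, by proteins that read AU-rich or Pumilio elements, by a premature stop codon or by a stalled ribosome. m6A is connected to the same machinery, since the reader YTHDF2 recruits CCR4-NOT to methylated transcripts.

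With 1 library per genotype there was no spread between animals, and no test or p-value could be computed. Each difference is therefore one between these libraries. A gene was counted where it reached 1 FPKM in at least one library, and was called higher or lower where the log2 ratio of (FPKM + 1), d/d over f/f, reached 1 or -1, a 2-fold difference on that scale. Depth was estimated at 17750000 fragments in the f/f library and 20600000 in the other. Of 16263 genes counted, 10.2% were called higher in d/d and 8.28% lower, with a median log2 ratio of -0.01.

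Marker genes of several cell types were at different levels in the libraries. The counts of markers called stand against 10.2% of all genes called higher and 8.28% called lower. Of 6 epithelial markers 5 were higher in d/d, and the 6 summed to 227 FPKM in f/f against 1498 in d/d. All 6 stromal markers were lower, at a summed 2053 and 512 FPKM, as were 2 of 6 smooth muscle markers, at 4820 and 3155, and 3 of 5 endothelial markers, at 251 and 115. All 6 natural killer cell markers were lower, at 290 and 4.00 FPKM, with Gzmc listed at 0 in d/d. Higher in d/d were 3 of 5 T cell markers, at 10.1 and 54.3 FPKM, 4 of 5 macrophage markers, at 431 and 1151, and 2 of 5 neutrophil markers, at 13.5 and 31.4, with Ly6g listed at 0 in f/f. In these lists 5 natural killer cell markers passed the filter through f/f alone, and 1 T cell and 2 neutrophil markers through d/d alone. A gene that passed through its higher library alone is bound to differ, so these counts are given as a description. All 6 uterine genes were measured in both libraries, with Hoxa10 and Hoxa11 called lower in d/d and Pgr, Esr1, Wnt4 and Emx2 neither, at a summed 694 and 331 FPKM. Hoxa10 and Hoxa11 are also among the 6 stromal markers, so they are counted in both lists. In whole tissue, fewer cells of a type and less RNA per cell cannot be told apart, and the part of composition in the values below was not tested.

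Among the members taken by symbol 3 passed the 2-fold limit. The members counted summed to 2543 FPKM in f/f against 2527 in d/d, a ratio of 0.994. The ratio of sums over all genes counted was 1.003, and FPKM is scaled to the library, so a ratio near 1 is not particular to the members. Of the 92 members 85 were counted, and all 85 were at 1 FPKM or more in both libraries. Of these 3 were called higher in d/d (3.53%, against 10.2% of all genes), namely Cnot8, Lsm10 and Pelo, and none was called lower (against 8.28%). The other 82 were neither. With a limit of 1.5-fold, 7 members were higher (against 18.8% of all genes) and 3 lower (against 17.8%), and with one of 3-fold there were 0 of either (against 4.62% and 3.27%). Among the 81 decay factors counted, the summed level was 2494 FPKM in f/f against 2488 in d/d, the median log2 ratio was -0.05, and 33 ratios were above 0 and 48 below.

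The ratios of the decay factors also lay close together. Their quartiles were -0.31 and 0.13, whereas the 12750 protein-coding genes in the same range of mean FPKM had quartiles of -0.40 and 0.40. The range was set by the lowest and highest mean of the decay factors, and the genes were not matched on level within it. The median in f/f was 22.3 FPKM for the decay factors against 14.3 for the 12750 genes, which include the decay factors. Some of the 12750 genes were at 0 in 1 library. A log2 ratio smaller than 0.5 in size was found for 67 of the 81 (82.7%) and for 58.7% of the genes in that range. Of the genes in that range 9.47% were called higher and 7.67% lower. The order of levels was also similar, with a Spearman rho of 0.92 between libraries across the 81 decay factors and of 0.86 across the 12750 genes. These values are across genes of the same pair of libraries, which are not independent replicates.

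**Figure D1:**
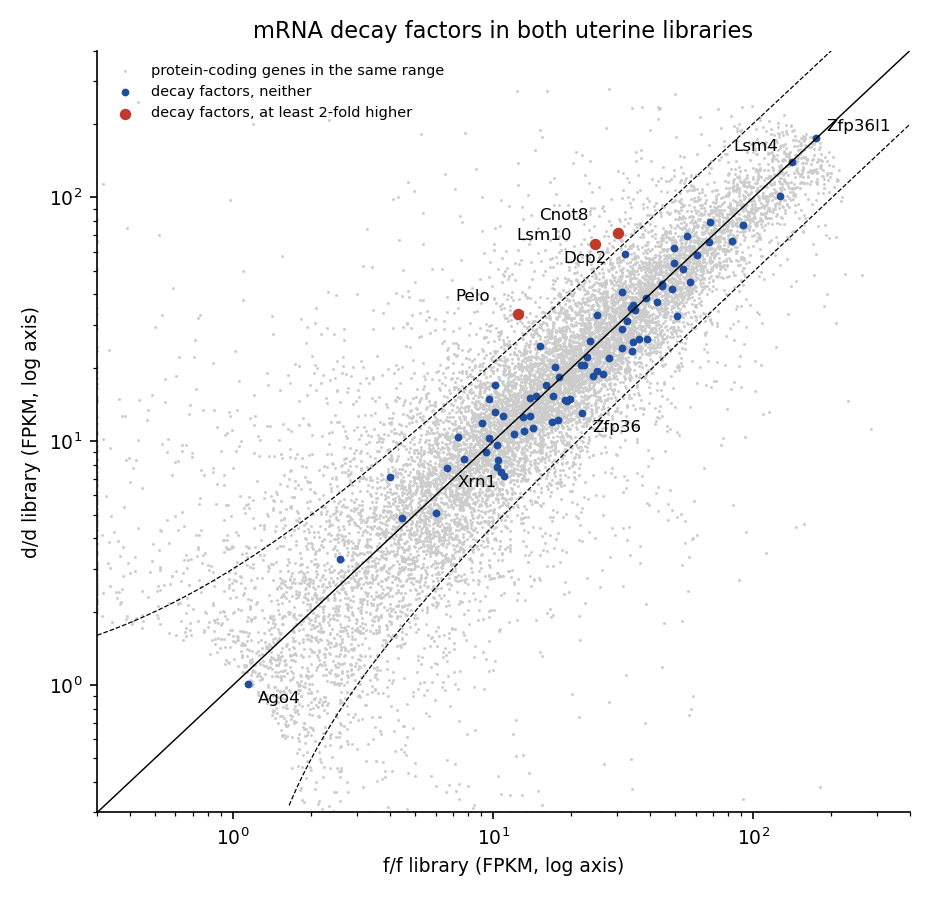
Level of each gene in the f/f library (horizontal) against the d/d library (vertical), in FPKM on log axes. Blue and red points are the 81 decay factors, grey points are 12750 protein-coding genes in the same range of mean FPKM, the solid line is equality and the dashed lines are the 2-fold limits on (FPKM + 1). Values under 0.3 FPKM are drawn at the edge. Cnot8, Lsm10 and Pelo lie above the upper dashed line and no decay factor lies below the lower one.

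**Figure D2:**
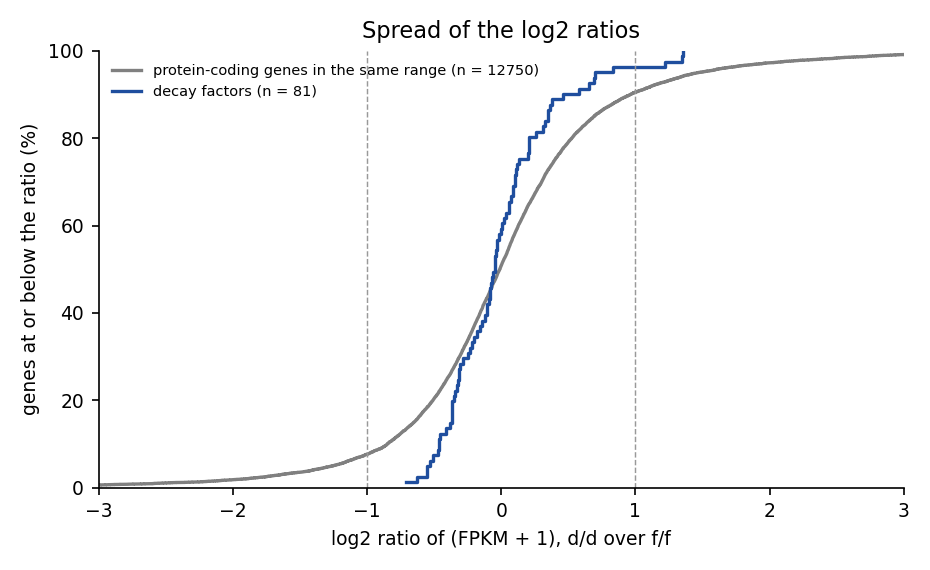
Cumulative share of genes, in percent, at or below each log2 ratio of (FPKM + 1), d/d over f/f. The curve of the 81 decay factors (blue) is steeper around 0 than that of the 12750 protein-coding genes in the same range (grey), with quartiles of -0.31 and 0.13 against -0.40 and 0.40.

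The promoters of the 3 called genes are shown because these are the members past the 2-fold limit. Each window holds the 250 bases before the RefSeq start (GRCm38.p6) nearest to the 5′ end of the representative transcript. Capitals mark matches on either strand to any of 9 motifs. The letters searched, with the share of all 32851 RefSeq windows of this length that hold them, were the CCAAT box (33.8%), the GC box GGGCGG (32.7%), the TATA box TATAAA (12.4%), the E-box CACGTG (6.02%) and the cAMP response element TGACGTCA (1.55%). The ETS core CCGGAA (12.0%), the progesterone receptor core TGTTCT (16.1%), the NRF1 site (0.782%) and the estrogen response element (0.0639%) were also searched.
Cnot8, chr11:58103979-58104228, plus strand: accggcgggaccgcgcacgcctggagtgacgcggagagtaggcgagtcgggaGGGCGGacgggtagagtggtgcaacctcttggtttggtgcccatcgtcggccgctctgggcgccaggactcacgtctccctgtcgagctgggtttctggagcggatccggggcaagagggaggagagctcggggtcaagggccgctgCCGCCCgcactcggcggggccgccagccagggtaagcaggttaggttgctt
Lsm10, chr4:126096403-126096652, plus strand: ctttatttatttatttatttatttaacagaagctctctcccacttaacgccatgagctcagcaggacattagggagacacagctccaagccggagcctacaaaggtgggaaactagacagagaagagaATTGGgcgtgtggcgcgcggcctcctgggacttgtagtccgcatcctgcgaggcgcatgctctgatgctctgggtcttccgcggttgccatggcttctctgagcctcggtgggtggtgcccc
Pelo, chr13:115090159-115090408, minus strand: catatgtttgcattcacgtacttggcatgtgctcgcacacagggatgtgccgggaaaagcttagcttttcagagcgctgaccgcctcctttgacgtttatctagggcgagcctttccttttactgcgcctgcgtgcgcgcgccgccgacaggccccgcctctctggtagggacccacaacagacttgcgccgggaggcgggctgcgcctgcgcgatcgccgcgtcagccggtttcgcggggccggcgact
The Cnot8 window held 2 GC boxes, and the Lsm10 window held 1 CCAAT box on the opposite strand. None of the 9 motifs was in the Pelo window, which says only that these letters are not in those bases. GC content was 69.2% for Cnot8, 63.6% for Pelo and 54.4% for Lsm10, beside a median of 52.4% over all windows. A window was present for 73 of the 92 members.

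The stretches around GGACT in the same 3 transcripts are shown because GGACU is the best known core sequence at which the METTL3-METTL14 complex methylates. No methylation was measured in these libraries. The representative GENCODE transcripts of Cnot8 and Pelo held 1 GGACT each, in the coding sequence, and that of Lsm10 held 2, in the 5′ UTR. Capitals mark GGACT with 8 bases on each side (GRCm38), read on the transcript strand with T for U, which is plus for Cnot8 and Lsm10 and minus for Pelo.
Cnot8, chr11:58117523-58117543: gaggatgtGGACTgtgcccag
Lsm10, chr4:126096723-126096743: gagagtggGGACTagggcgcg
Lsm10, chr4:126096772-126096792: ctggctgcGGACTtttcttcc
Pelo, chr13:115088793-115088813: cgttctatGGACTcaagcagg
Of the 81 decay factors 74 held at least 1 GGACT (91.4%), as did 91.8% of the 12744 protein-coding genes in the same range with an annotated transcript. The median density was 0.95 per kb in the decay factors and 1.06 per kb in those genes.

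Within CCR4-NOT, the main cytoplasmic deadenylase, 1 of 11 genes was called higher (9.09%, against 10.2% of all genes) and none lower (against 8.28%). The count of higher calls is thus near the share of all genes, and the median log2 ratio was -0.08. The called gene was Cnot8, 1 of the paired catalytic subunits of the CAF1 type. It was 30.3 FPKM in f/f against 71.7 in d/d, which is 2.37-fold and a log2 ratio of 1.22, at or above which lay 7.59% of all genes counted. From position 32 among the members in f/f it moved to position 6 in d/d. The gene (ENSMUSG00000020515) spans 58104153 to 58118594 on the plus strand of chromosome 11 (GRCm38). It has an annotated transcript of 231 nt, a length at which FPKM is less certain, and no other annotated gene overlaps it. At the estimated depth the values stand for about 1128 and 3100 fragments over its representative transcript.

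The paralogue Cnot7, which encodes the alternative CAF1 subunit, was 34.5 FPKM in f/f against 36.3 in d/d. The order of the pair thus differed between libraries, with Cnot8 at 0.88 times Cnot7 in f/f and at 1.97 times in d/d. The other catalytic pair, of the CCR4 type, kept its order, with Cnot6 at 48.5 and 42.1 FPKM and Cnot6l at 15.9 and 16.9. The scaffold gene Cnot1 was the most abundant of the complex in f/f, at 53.5 FPKM, and was 50.7 in d/d. Cnot2 and Cnot3, which form the NOT module on it, were 38.6 and 38.8, and 26.5 and 18.9 FPKM. Cnot9, which contacts TNRC6 proteins, was 25.2 and 19.5. Cnot10 and Cnot11, which bind the amino-terminal part of CNOT1, were 18.9 and 14.7, and 13.9 and 12.7 FPKM. The ubiquitin ligase gene Cnot4, a looser partner, was 10.1 and 13.1. Apart from Cnot8, the log2 ratios of the complex thus ran from -0.46 to 0.35.

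The other deadenylases gave no call among 3 genes, with a median log2 ratio of -0.22. Pan2, the catalytic subunit of the enzyme that trims long tails first, was 6.05 FPKM in f/f against 5.06 in d/d, and its RNA-binding partner Pan3 was 17.4 and 20.2. Parn, which trims poly(A) tails, was 16.9 and 12.0 FPKM.

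Adaptors that bring the deadenylase to its targets were also without a call. In the BTG/TOB family, whose proteins bind the CAF1 subunits, 5 of 6 genes were counted, with a median log2 ratio of -0.04. Btg1 was 49.5 FPKM in f/f against 62.3 in d/d, and Btg2, a gene induced by p53 and by growth stimuli, was 44.5 and 43.2. Tob1 was 15.2 and 24.5 FPKM, a log2 ratio of 0.65, while its paralogue Tob2 was 27.8 and 22.0, so that this pair too stood in a different order in each library. Btg3 was 10.8 and 7.50 FPKM, and Btg4, which in mice is known from oocytes, was listed at 0 in both libraries.

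The ZFP36 family binds AU-rich elements in 3′ UTRs and recruits CCR4-NOT. Zfp36l1 was the most abundant of all 92 members in both libraries, at 174 FPKM in f/f against 176 in d/d. Zfp36l2 was 55.6 and 69.3 FPKM. Zfp36, which encodes tristetraprolin, was the lowest of the 3 counted, at 21.9 FPKM in f/f against 13.0 in d/d, and its log2 ratio of -0.71 was the lowest of any decay factor without reaching the 2-fold limit. Zfp36l1 therefore exceeded Zfp36 by 7.93 times in f/f and by 13.5 times in d/d. The fourth gene, Zfp36l3, known in mice from placenta, was listed at 0 in f/f against 0.0210 FPKM in d/d.

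Of 26 transcripts known as ZFP36 targets, 20 were counted, 6 of them called higher and 3 lower, against 10.2% and 8.28% of all genes, with a median log2 ratio of 0.51. Of the 20, 4 reached 1 FPKM in d/d alone, Lif and Il23a among them, and 3 in f/f alone, Ptgs2 among them. These 3 genes were called, and since a gene that passed through its higher library alone is bound to differ, the counts and the median are given as a description. Bhlhe40, a basic helix-loop-helix repressor, was 9.06 FPKM in f/f against 100.3 in d/d. Lif, the cytokine required for implantation in mice, was 0.976 and 12.7. Cdkn1a, a cell cycle inhibitor, was 14.9 and 74.7 FPKM, and the proto-oncogene Myc was lower, at 77.8 and 20.6. The list shares Fos, Ier3, Dusp1 and Cdkn1a with other lists used here, and many of its genes are also set by hormones or leukocytes.

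Pumilio proteins bind a conserved element in 3′ UTRs and repress through CCR4-NOT. Pum2 was 42.5 FPKM in f/f against 37.4 in d/d. Pum3, a nucleolar relative with a role in ribosome biogenesis, was the most abundant of the family, at 68.5 and 79.1 FPKM. No gene of this family was called.

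In the microRNA pathway, 5 of 7 genes had ratios above 0 and none was called. The median of 0.26 was the highest of the groups with more than 1 gene. Ago2, the Argonaute that can cut its target, was 9.63 FPKM in f/f against 14.9 in d/d, a log2 ratio of 0.58. Ago1 was 13.1 and 11.0, so that the more abundant of the 2 main Argonautes was Ago1 in f/f and Ago2 in d/d. Ago3 and Ago4 were scarcer, at 2.58 and 3.29, and 1.14 and 1.01 FPKM, and Ago4 was the scarcest member counted. The TNRC6 scaffolds, which connect Argonaute to the deadenylases, were 31.4 and 40.8 FPKM for Tnrc6a, 7.75 and 8.47 for Tnrc6b, and 9.09 and 11.9 for Tnrc6c.

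Decapping factors had a median log2 ratio of -0.04 over 8 genes, with no call. Dcp2, the decapping enzyme, had the highest ratio below the 2-fold limit of any member, 0.84, at 32.3 FPKM in f/f against 58.4 in d/d. Its activator Dcp1a was 9.35 and 9.03 FPKM, so that Dcp2 exceeded Dcp1a by 3.45 times in f/f and by 6.47 times in d/d. The second activator gene, Dcp1b, was 4.46 and 4.85. The helicase gene Ddx6, which joins repression to decapping, was the most abundant of the group, at 67.4 and 65.8 FPKM.

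Among the scaffolds of the decapping complex, Edc3 was 9.61 and 10.3 FPKM, Edc4 14.3 and 11.4, and Patl1 10.4 and 8.36. The scavenger enzyme gene Dcps, which clears the cap left after 3′ decay, was 36.3 and 26.2. Dcp2 had the largest log2 ratio in size among these 8 genes, and the other 7 had ratios between -0.45 and 0.10.

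The LSM proteins form RNA-binding rings. Of their 13 genes 1 was called higher (7.69%, against 10.2% of all genes) and none lower (against 8.28%). The called gene was Lsm10, at 24.7 FPKM in f/f against 64.2 in d/d, which is 2.60-fold and a log2 ratio of 1.34, at or above which lay 6.25% of all genes counted. LSM10 is not a decay factor in the strict sense. With LSM11 it takes the place of a pair of Sm proteins in the U7 particle, which cuts the 3′ end of replication-dependent histone transcripts. Lsm11, its partner, was 4.03 and 7.15 FPKM, a log2 ratio of 0.70, so that the ratios of Lsm10 and Lsm11 were both above 0. Lsm10 (ENSMUSG00000050188) spans 126096623 to 126098584 on the plus strand of chromosome 4, with no other annotated gene overlapping it. Its values stand for about 413 and 1246 fragments.

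The ring genes proper were close to equal in the libraries or somewhat lower in d/d. Lsm1, which marks the cytoplasmic ring that activates decapping, was 21.8 FPKM in f/f against 20.5 in d/d. Lsm8, which takes its place in the nuclear ring on U6 RNA, was 91.6 and 77.1. Of the 6 subunits common to both rings, Lsm4 was the most abundant at 140.7 and 140.2 FPKM and Lsm3 followed at 126 and 102. Lsm2 was 82.8 and 66.4, Lsm7 33.8 and 35.2, Lsm6 32.6 and 31.3, and Lsm5 11.0 and 7.20 FPKM. The 7 genes of the cytoplasmic ring summed to 449 and 402 FPKM, and those of the nuclear ring to 519 and 459, with 6 of 7 ratios below 0 in each, of which that of Lsm4, at -0.0045, takes the other sign when ratios are centred by expression level. The 6 common genes are counted in both sums. The Lsm5 values rest on the fewest fragments of any decay factor counted, about 96.8 and 73.3.

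Of the larger relatives, Lsm14a and Lsm14b, which sit in P-bodies and repress translation, were 60.9 and 58.1, and 34.4 and 25.6 FPKM. Lsm12 was 13.0 and 12.5.

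The exonucleases that digest from the 5′ end stood on opposite sides of 0. Xrn1, the cytoplasmic enzyme, was 6.65 FPKM in f/f against 7.77 in d/d. Xrn2, the nuclear enzyme that also acts in transcription termination, was 39.1 and 26.3, a log2 ratio of -0.55. Xrn2 thus exceeded Xrn1 by 5.88 times in f/f and by 3.39 times in d/d.

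The exosome, which digests from the 3′ end, had no call among 13 genes with its nucleases and a median log2 ratio of -0.03. Its 9 core subunits, Exosc1 to Exosc9, summed to 327 FPKM in f/f against 300.5 in d/d. Among them Exosc5 was the most abundant in f/f, at 56.9 and 45.2 FPKM, and Exosc3 in d/d, at 49.6 and 53.7. Exosc8 had the lowest ratio, -0.62, at 51.0 and 32.7, and Exosc4 the highest, 0.38, at 25.0 and 32.8. The other core genes ran from 10.9 to 44.8 FPKM in f/f and from 12.7 to 44.3 in d/d. Exosc6, the lowest of them, lies in full within exon sequence of Aars on the same strand, so that its own value of 10.9 and 12.7 FPKM is uncertain. Whether counting used strand is not stated, and Pelo, Edc3, Exosc4, Btg3, Exosc2 and Exosc9 share more than 10% of their exon bases with a gene on the opposite strand, so that reads of the pairs could not be told apart. Of those partners Ccna2, opposite Exosc9, was 52.6 and 25.4 FPKM.

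Of the catalytic subunits, Exosc10, the nuclear one, was 34.2 FPKM in f/f against 23.4 in d/d, and Dis3, also mainly nuclear, was 17.8 and 12.2. Dis3l, the cytoplasmic counterpart, was 18.0 and 18.4 FPKM. Dis3l2, which degrades uridylated RNA without the exosome, was 7.30 and 10.4. The nuclear subunits thus had ratios of -0.53 and -0.51 and the cytoplasmic enzymes of 0.03 and 0.46. The SKI complex feeds the cytoplasmic exosome, and its helicase gene Skiv2l was 19.2 and 14.6 FPKM and its scaffold gene Ttc37 10.4 and 9.69.

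Nonsense-mediated decay factors had no call among 10 genes and a median log2 ratio of -0.13. The central helicase gene Upf1 was 23.5 FPKM in f/f against 25.9 in d/d, and the kinase gene Smg1, which phosphorylates UPF1, was 14.7 and 15.4. Upf2 was 12.1 and 10.7, and the paralogues Upf3a and Upf3b, which join it to the exon junction complex, were 24.3 and 18.6, and 13.9 and 15.0 FPKM. Smg5, which brings decay enzymes to UPF1, was the most abundant, at 31.3 and 28.9. The endonuclease gene Smg6 was 19.7 and 14.9 FPKM.

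The largest difference in this group was in Smg8, which restrains the SMG1 kinase, at 10.2 FPKM in f/f against 17.1 in d/d, a log2 ratio of 0.69. Its partner Smg9 was 10.4 and 7.81 FPKM. The pair was nearly equal in f/f, while in d/d Smg8 was 2.19 times Smg9.

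Transcripts known to be raised when nonsense-mediated decay is impaired gave 2 higher and 3 lower calls among 18 counted, against 10.2% and 8.28% of all genes, with a median log2 ratio of -0.14. Gadd45g, a stress-induced growth inhibitor, was 50.4 FPKM in f/f against 176 in d/d, and Ern1, a sensor of unfolded proteins, was 8.09 and 20.2. The small nucleolar RNA host Snhg1 was 211 and 101 FPKM, and the uridine phosphorylase gene Upp1 was 16.0 and 7.24.

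Pelo was the member with the highest log2 ratio, and its call depends on how overlapping genes are counted. It encodes Pelota, which splits stalled ribosomes in no-go decay. The gene was 12.4 FPKM in f/f against 33.4 in d/d, which is 2.68-fold and a log2 ratio of 1.35, at or above which lay 6.14% of all genes counted. Pelo (ENSMUSG00000042275) spans 115088355 to 115090186 on the minus strand of chromosome 13, inside the integrin gene Itga1 on the same strand. A second gene on that strand, Gm49395, shares 739 exon bases with it, 46.2% of its exon sequence. Gm49395 was 8.80 FPKM in f/f against 2.94 in d/d, a log2 ratio of -1.32. Summed, the 2 genes were 21.2 and 36.3 FPKM, a log2 ratio of 0.75, which does not reach the 2-fold limit. On the opposite strand Gm10734 shares 468 exon bases with Pelo, 29.2% of its exon sequence, and was 0.652 and 0.561 FPKM. Itga1 shares no exon base with Pelo and was 11.3 and 6.11 FPKM. The values of Pelo stand for about 353 and 1100 fragments.

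**Figure D3:**
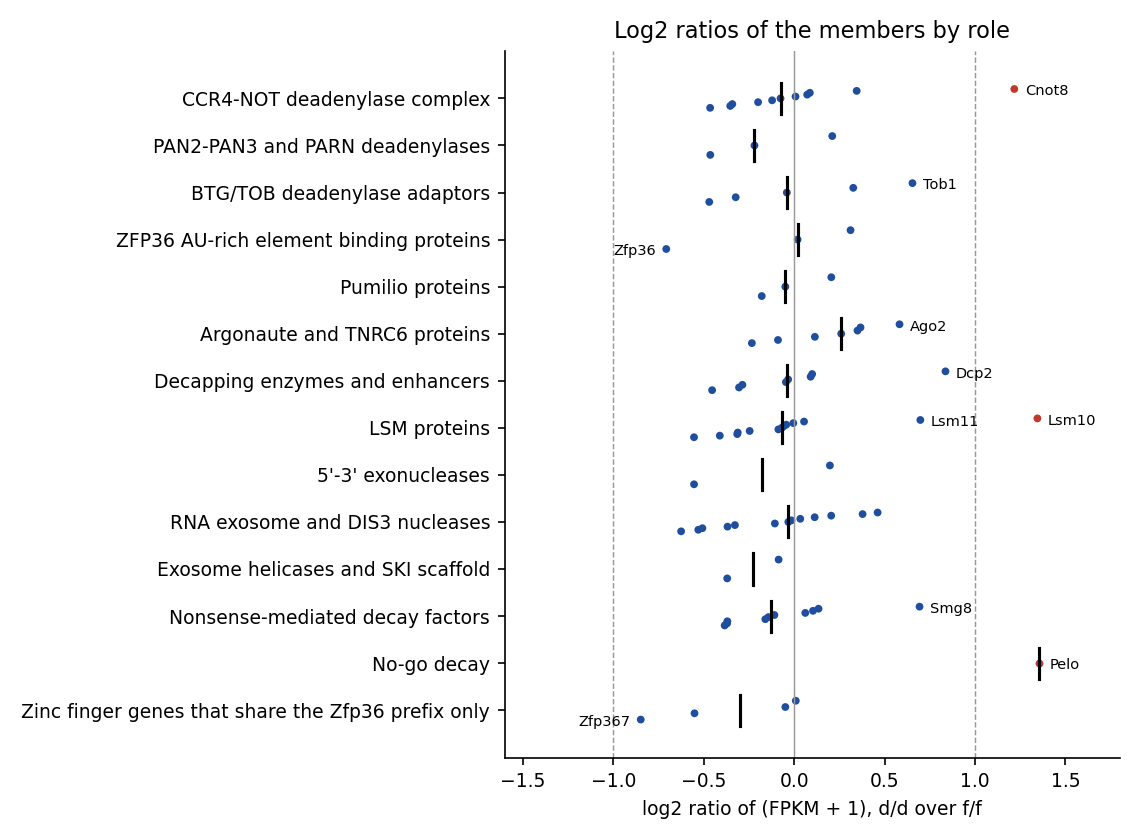
Log2 ratio of (FPKM + 1), d/d over f/f, of the 85 members counted, by role. Each point is 1 gene from 1 library per genotype, black bars are group medians, dashed lines are the 2-fold limits, and the height within a row only separates points. Red points mark Cnot8, Lsm10 and Pelo, at 1.22, 1.34 and 1.35.

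Several factors have a paralogue, an alternative or a partner, and 19 such pairs were set side by side, chosen after the values were seen. The order of levels differed between libraries in 4 pairs, namely Cnot7 and Cnot8, Tob1 and Tob2, Ago1 and Ago2, and Smg8 and Smg9. The last of these was nearly equal in f/f. In the other 15 pairs the order was the same in both libraries.

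**Figure D4:**
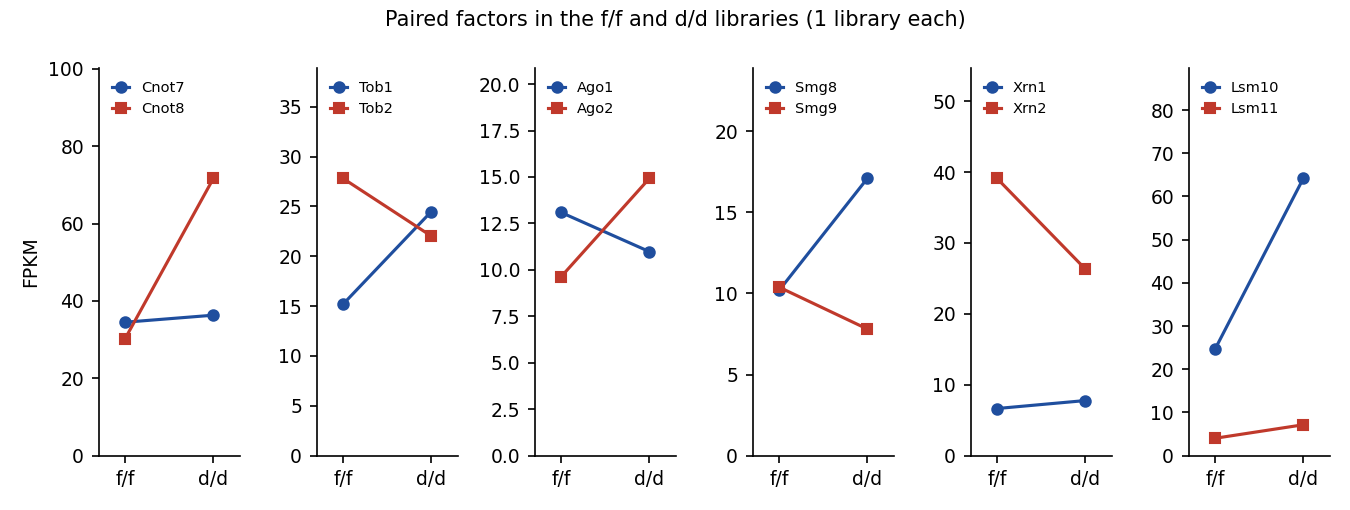
Levels in FPKM of 6 pairs of factors in the f/f and d/d libraries, with 1 library per genotype and no error bars. The lines cross for Cnot7 and Cnot8, Tob1 and Tob2, Ago1 and Ago2, and Smg8 and Smg9, and do not cross for Xrn1 and Xrn2 or for Lsm10 and Lsm11.

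Factors of the same processes that bear other symbols were read from a list of 62 genes, of which 58 had a row and all 58 were counted. Of these 6 were called higher (10.3%), near the 10.2% of all genes, and none was called lower (against 8.28%). The median log2 ratio was 0.07. Pnrc2, which activates decapping and connects UPF1 to it, was 94.0 FPKM in f/f against 333 in d/d, a log2 ratio of 1.81. The reader Ythdf2, which recruits CCR4-NOT to m6A, was 23.3 and 64.2. Pde12, a deadenylase of mitochondria, was 3.98 and 11.9 FPKM, and Zc3h12a, the endonuclease Regnase-1, was 1.35 and 5.05. The other called genes were the deadenylase-like Noct, at 3.91 and 9.20, and the polyadenylation element binding gene Cpeb1, at 2.84 and 7.48 FPKM (both named after their values were seen).

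A property the symbols do not use was the number of exons in the representative transcript, examined after the values were seen. Lsm10 and Pelo have 2 exons each and Cnot8 has 7. Of the 10 decay factors with 1 or 2 exons, 2 were called higher and none lower, against 10.2% and 8.28% of all genes. Of these 10, 7 had ratios above 0, with a median of 0.26. The 2 called were Lsm10 and Pelo, and Pelo summed with Gm49395 was at 0.75, under the 2-fold limit. The 10 also include Exosc6, whose value is uncertain, and Zfp36, at -0.71 the lowest ratio of any decay factor. The 21 decay factors with 21 or more exons had a median of -0.11, with 7 ratios above 0 and no call.

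In the protein-coding genes in the same range of mean FPKM, the median was likewise higher at 1 or 2 exons than at 21 or more. Between these ends the decay factors had medians of -0.051 at 3 to 5 exons, -0.046 at 6 to 10 and -0.068 at 11 to 20. The genes in that range had 0.084, -0.017 and -0.061. Those with 1 or 2 exons had a median log2 ratio of 0.22 and 17.6% were called higher, over 976 genes. Those with 21 or more exons had a median of -0.09 and 6.80% were called higher, over 1706 genes. Across the 81 decay factors Spearman's rho of the log2 ratio was -0.19 with the number of exons and 0.37 with the length of the longest exon. Across 12744 genes in that range the values were -0.10 and 0.10, so that these are weak relations over genes measured in the same libraries. For the decay factors and then those genes, rho was 0.11 and 0.05 with GGACT per kb and 0.21 and 0.04 with transcript length. It was -0.10 and 0.07 with GC percent, and 0.0044 and 0.08 with log2 mean FPKM. The longest exon thus gave the largest rho in size of the properties computed for the decay factors.

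**Figure D5:**
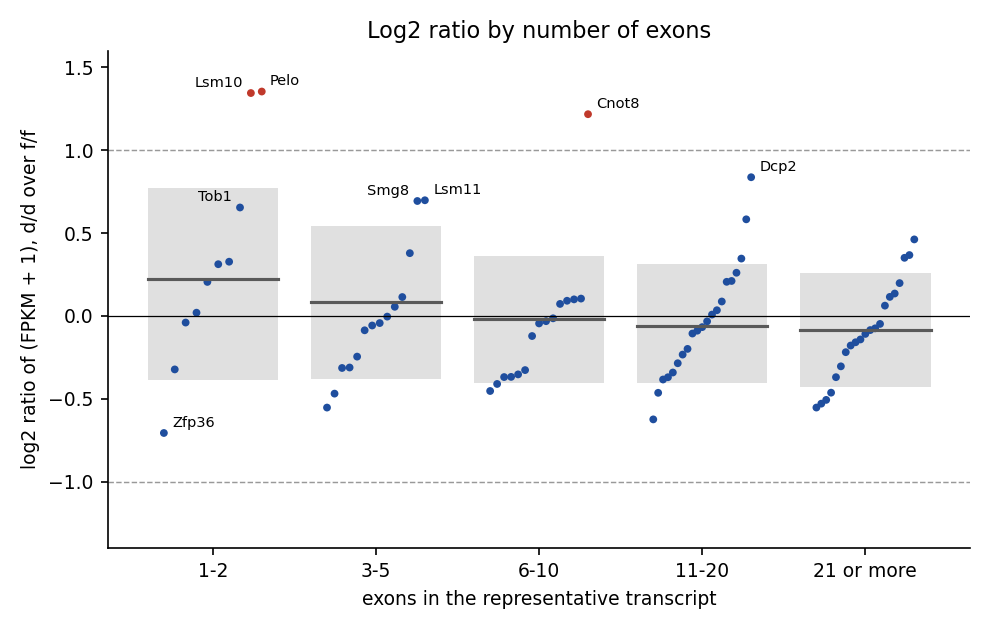
Log2 ratio of (FPKM + 1), d/d over f/f, by number of exons in the representative transcript. Points are the 81 decay factors (red for at least 2-fold higher), grey boxes are the quartiles and dark bars the medians of the protein-coding genes in the same range, and dashed lines are the 2-fold limits. The dark bars run from 0.22 at 1 to 2 exons to -0.09 at 21 or more.

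The 9 remaining members were not decay factors or were not measured above the filter. Of the zinc finger genes that share only the prefix, Zfp367, a gene tied to the cell cycle, was 16.6 FPKM in f/f against 8.75 in d/d, a log2 ratio of -0.85 and the lowest of the 85 members counted. Zfp366 was 3.58 and 2.13, Zfp362 19.9 and 19.2, and Zfp369 8.06 and 8.12 FPKM. Zfp365 was 0.984 and 0.478 and stayed under the filter. The pseudogene Zfp36l1-ps was 0.331 and 0.214 FPKM, and Btg1b, Btg1c and Skiv2l-ps1 were listed at 0 in both libraries. Genes just inside the filter and just outside it were thus Ago4 and Zfp365.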

How the data were processed

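RNA sequencing of whole uterus gave 1 library for f/f and 1 for d/d, made from TRIzol-extracted total RNA with a TruSeq kit, per the labels' protocols. The authors deposited FPKM values. Tools listed in the submitters' processing notes are HISAT2 2.2.1, Cufflinks 2.2.1 and the build mm10. The sources used here give no strandedness, read length or annotation release. FPKM rests on how Cufflinks shares fragments between overlapping or near-identical genes.

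Rows that share a symbol were summed, 55483 rows to 55363 genes. Ratios used a pseudocount of 1 FPKM, which understates changes of low genes, a filter of 1 FPKM in at least one library, and a 2-fold limit. No test was possible. Genes named were all members past the limit, in each role the most abundant and the most different member, and up to 4 per further list. Other members were named to account for the rest, and some members counted are not reported here by name. Members, lists and rules were chosen with earlier results of these data known. Of 62 further decay factors 4 had no row under the symbol used, and Skiv2l2 had none.

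Depth was estimated from single-transcript genes of at least 2000 nt, where FPKM times length should fall on whole fragments. This held within 0.1 for 63.7% of 1024 low values in f/f and for 60.6% of 1074 in d/d. The estimate is approximate and entered no ratio. Fragment numbers cover counting error only. Positions, exons and transcripts come from GENCODE M21 (GRCm38, also called mm10), and promoters from RefSeq. Ratios were computed with Python 3.11.15 and pandas 2.3.3, and tested on simulated data. Alternatives changed the pseudocount, filter, limit, scaling, centring and members.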

Additional observations from a re-analysis of the deposited data

How the results depend on the processing

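The counts of 3 members higher and 0 lower held under each of 13 alternatives except the changed limits. With a limit of 1.5-fold, 7 were higher (Dcp2, Lsm11, Smg8 and Tob1 beside the 3) and 3 lower (Zfp36, Zfp367 and Exosc8), beside 18.8% and 17.8% of all genes, and with 3-fold 0 were higher. The ratio of Cnot8 ran from 1.12 to 1.24 and that of Lsm10 from 1.06 to 1.38 over 15 alternatives. Summing Pelo with Gm49395, added after seeing the data, took Pelo to 0.75 and left 2 members higher. Upper-quartile scaling put the median of all genes at -0.10. The median of the members ran from -0.14 to -0.03.

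Of 299 group and list medians recomputed, 280 moved by 0.1 or less. With a pseudocount of 5 the Argonaute and TNRC6 median was 0.13, that of no-go decay (Pelo alone) 1.14, that of the prefix-only zinc finger genes -0.15 and that of the ZFP36 targets 0.29. The ZFP36 targets moved to 0.64 with a pseudocount of 0.1 and to 0.70 with a 5 FPKM filter. The prefix-only genes were at -0.049 with that filter and at -0.42 with none, and the immediate early genes at -0.20 with none. Centring by expression level put PAN2-PAN3 and PARN at -0.063. Centring by number of exons, also added later, gave 0.030 for CCR4-NOT, -0.18 for BTG/TOB, -0.26 for ZFP36 proteins, 0.38 for Argonaute and TNRC6, -0.073 for the 5′ exonucleases, 1.07 for no-go decay, -0.030 for the nonsense-mediated decay targets and -0.43 for the immediate early genes. The cause of these shifts was not tested. No paired analysis was possible because each genotype has 1 library. With 1 library, the spread between animals is unknown and leaving a replicate out could not be done.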

Other observations

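Both Btg2 and Zfp36 are known as stimulus-induced genes, and lists of such genes were read beside them. Of 13 p53 target genes 3 were called higher in d/d and none lower, against 10.2% and 8.28% of all genes, with a median log2 ratio of 0.61. Gdf15, a stress cytokine that passed the filter through d/d alone, was 0.246 FPKM in f/f against 28.8 in d/d, and Cdkn1a was 14.9 and 74.7. Perp, a membrane protein gene of epithelia, was 18.2 and 60.8 FPKM. Btg2, itself a p53 target, was 44.5 and 43.2.

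Of 12 immediate early genes counted among 13 listed, 2 were called higher and 1 lower, against 10.2% and 8.28% of all genes, with a median log2 ratio of -0.31. Klf4, a transcription factor of epithelia, was 16.6 FPKM in f/f against 115 in d/d. Klf2, known from endothelium, was lower, at 44.2 and 16.3, and Fos was 8.72 and 22.8. These lists share Ier3, Atf3, Dusp1, Fos and Cdkn1a with the target lists above. The part of RNA handling or cell composition in these values was not tested.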
